A study of Mus musculus with 8 samples.

Results

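Genes whose symbols mark them as part of the cell cycle and mitosis machinery were compared between female and male mouse hearts at 2 and 8 months of age. Members were rows of the deposited table whose gene symbol begins with Ccna, Ccnb, Ccnd, Ccne, Cdk and a digit, Cdkn (except 1 gene), Cdc and a digit, Mcm and a digit, Cenp, Kif, Bub, Aurk, Plk, E2f or Rrm, or is Mki67, Top2a, Pcna, Tyms or Birc5. The rule found 85 genes on 93 of the 9607 rows, out of 6106 genes that had a row with 1 symbol, and 8 members had 2 rows each. In all, 84 members had enough values at both ages. The remaining member, the mitotic kinesin Kif20b, had no value on any 8-month array and stood at 0.15, 0.48, -0.62 and -0.21 on the 2-month arrays (log2 female over male).

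All mice were C57BL/6, an inbred laboratory strain, and no group carried a transgene or a treatment. Total RNA of 6 whole hearts went into each of 4 pools: females and males of 2 months and females and males of 8 months. Each array set the female pool against the male pool of 1 age, with the female pool in the dye Cy3 on replicates 1 and 3 and in Cy5 on replicates 2 and 4. With 1 pool per sex and age, the 4 arrays of an age are technical repeats: the SD given beside a value is the spread of arrays, not of animals, and no test across animals exists at 1 age. The ages were never on 1 array, so the sex ratio can be compared between ages but the level of a gene cannot. In whole tissue, fewer cells of a type and less RNA per cell cannot be told apart. Since the table holds ratios only, the presence of heart muscle transcripts could not be read from levels. The 9 measured cardiomyocyte markers had a median ratio of -0.02 at 2 months and -0.27 at 8 months.

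A cell that divides first passes the G1 phase, in which D- and E-type cyclins activate their kinases and E2F factors switch on genes for DNA replication. In S phase the MCM helicase opens the DNA, and in mitosis Cdk1 with A- and B-type cyclins, the Aurora and Polo-like kinases, the centromere and the mitotic kinesins sort the chromosomes. Most muscle cells of the adult heart have left the cycle, while blood-derived, vascular and connective tissue cells of the organ still divide. The symbol rule also takes in relatives that do not serve division, such as kinesins that carry cargo along axons.

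Members were grouped by role: 11 measured S-phase genes, 25 measured mitotic genes (12 mitotic regulators, 6 centromere proteins and 7 mitotic kinesins) and 48 others. All ratios below are log2 female over male, so that 1 is 2-fold higher and -1 is 2-fold lower in the female pool. A member met the size rule when the pools differed 1.5-fold or more and every array of that age had the same sign.

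At 2 months the mitotic genes leaned towards the female pool. Of the 25, 19 were above 0 and 6 below, with a median of 0.28, where 46.4% of all 7812 tested rows were above 0. Mki67, Top2a, Cdk1 and Cenpf met the size rule, each of them higher in females. These were 4 of the 5 members that did so, while 2.41% of all rows met the rule as higher and 1.77% as lower. The S-phase genes had a median of 0.22, with 8 above 0 and 3 below, and none met the size rule. The 48 other members had a median of -0.05, with 19 above 0 and 29 below, and 1 met the size rule, the neuronal transport kinesin Kif1a, lower in the female pool. Without replicate 4 the count was 3 (4.07% of all rows), and Cenpf and Kif1a did not meet the rule. Cdk1 did not meet it without replicate 2, nor Cenpf without replicate 3.

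The highest ratio of all members belonged to Mki67, the gene of the proliferation antigen Ki-67. On the 2-month arrays it stood at 0.88, 1.45, 0.85 and 1.19, with a mean of 1.10 ± 0.28 (SD, n = 4 arrays), or 2.14-fold. At 8 months it stood at 0.33, 0.25, -0.36 and -0.50, a mean of -0.07 ± 0.42. The lowest 2-month array was above the highest 8-month array, and the ratio differed between the ages by -1.17.

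Top2a, the topoisomerase that untangles chromosomes before they separate, was next. It stood at 1.28, 1.31, 0.43 and 0.87 at 2 months (0.97 ± 0.41) and at -1.80, 0.18, -0.49 and -0.59 at 8 months (-0.67 ± 0.82). The arrays of the ages did not overlap here either, and the difference of -1.65 was the widest among the members.

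Cdk1, the kinase that starts mitosis, stood at 0.79, 0.91, 0.53 and 0.50 at 2 months (0.68 ± 0.20) and at -1.44, 1.10, -0.54 and -0.11 at 8 months (-0.25 ± 1.06). Cenpf, a kinetochore protein made late in the cycle, stood at 0.45, 0.52, 0.81 and 0.67 at 2 months (0.61 ± 0.16). On the 8-month arrays it was at -0.99, 0.63, -0.38 and -0.42 (-0.29 ± 0.68). Both genes were higher in the female pool on each 2-month array and lower on 3 of 4 arrays at 8 months. Replicate 2 alone was above 0 at that age, so the ages overlapped for both genes.

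**Figure D1:**
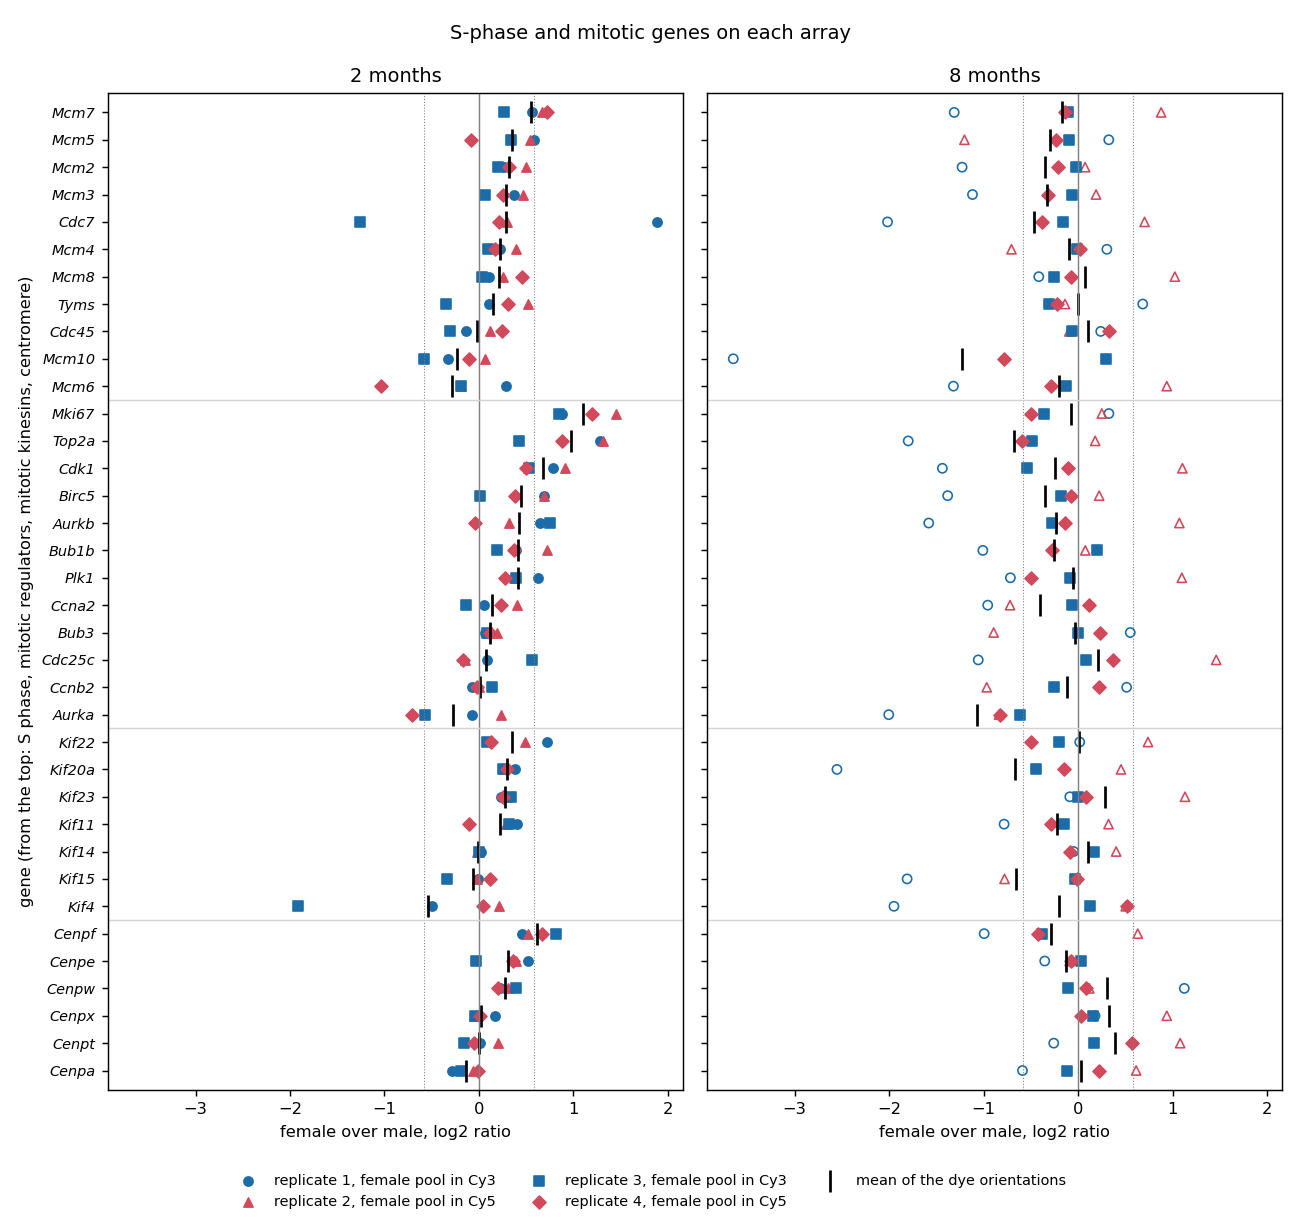
Female over male log2 ratio of each measured S-phase and mitotic gene on each array at 2 months (left) and 8 months (right). Circles and squares are arrays with the female pool in Cy3 and triangles and diamonds those with it in Cy5, open symbols are 8-month replicates 1 and 2, black bars are the means of the dye orientations, and dotted lines mark 1.5-fold; Mki67, Top2a, Cdk1 and Cenpf lie wholly to the right of 0 at 2 months, and the open symbols spread more widely than the filled ones.

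Among the other mitotic regulators at 2 months, 4 stood close together just short of 1.5-fold: Birc5, the survivin subunit of the chromosomal passenger complex, at 0.44 ± 0.32, and its kinase partner Aurkb at 0.42 ± 0.36. The spindle checkpoint kinase Bub1b was at 0.42 ± 0.22 and the Polo-like kinase Plk1 at 0.42 ± 0.15. Birc5, Bub1b and Plk1 were above 0 on all 4 arrays, and Aurkb on 3 of 4. The cyclins Ccna2 and Ccnb2, partners of Cdk1, were at 0.14 ± 0.23 and 0.01 ± 0.09. Of the 12 regulators 11 were above 0, and Aurka, the kinase of the spindle poles, was the exception at -0.28 ± 0.44.

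The mitotic kinesins were less uniform, with a median of 0.23 at 2 months and 4 of 7 above 0. Kif20a and Kif23, motors of the central spindle, had arrays close to each other at 0.30 ± 0.06 and 0.28 ± 0.04. Kif22, a chromosome-binding motor, was at 0.35 ± 0.30 and Kif11, which pushes spindle poles apart, at 0.23 ± 0.23. The chromosome-binding motor Kif4 was at -0.54 ± 0.96, which rested on replicate 3 at -1.91 and replicate 1 at -0.50 against 0.21 and 0.04 on the others.

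The centromere genes had a median of 0.15, and apart from Cenpf they stayed within 1.5-fold. Cenpw was at 0.28 ± 0.09 with 1 sign on all arrays, while Cenpa, the centromeric histone, was at -0.14 ± 0.12. Cenpe, a kinetochore motor, was at 0.31 ± 0.24 as the mean of 2 rows that disagreed: they stood at 0.060 and 0.881 at 2 months and at 0.364 and -0.613 at 8 months.

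Helicase genes led the S-phase group. Mcm7 stood at 0.56, 0.67, 0.27 and 0.72 at 2 months (0.55 ± 0.20), and Mcm2 at 0.26, 0.50, 0.20 and 0.32 (0.32 ± 0.13). Both were above 0 on every 2-month array, as were Mcm3 at 0.29 ± 0.17, Mcm4 at 0.22 ± 0.13 and Mcm8 at 0.21 ± 0.19. Mcm5 was at 0.34 ± 0.30 with 1 array below 0. The remaining helicase subunit, Mcm6, was at -0.28 ± 0.55, and its arrays ran from -1.04 to 0.29. Cdc7, the kinase that fires replication origins, was at 0.28 ± 1.28, with arrays from -1.26 to 1.89, so its sign was not settled. Tyms, the enzyme of thymidylate synthesis, was at 0.15 ± 0.37. Cdc45, which joins MCM in the active helicase, was at -0.02 ± 0.24, and the origin factor Mcm10 was at -0.24 ± 0.28.

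Of all members 22 were above 0 and 13 below 0 on all 2-month arrays, where 35.8% of all rows had 1 sign. The mitotic genes held 12 of the 22 and the S-phase genes 5. Over the members, the correlation was 0.397 and 0.811 between arrays that shared a dye orientation and 0.115 to 0.575 between arrays that did not. Over all rows it was 0.780 and 0.856 with a shared orientation and 0.010 to 0.256 without. These correlations are across genes, which are not independent replicates.

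At 8 months the ratios spread more widely, and most members lay below 0. Replicates 1 and 2 of that age carried a trend of the ratio with the position of a probe in the array's numbering. The trend had an SD of 0.51 and 0.82 there, against 0.037 to 0.075 on the other 6 arrays. The interquartile range of their ratios was 1.18 and 1.56 against 0.30 to 0.46 elsewhere. The median SD of a member over the arrays was 0.59 at 8 months and 0.20 at 2 months, and over 8-month replicates 3 and 4 alone it was 0.14. Values from replicates 3 and 4, 1 array of each dye orientation, are therefore given beside those from all 4. These 2 arrays correlated at only 0.176 over the members and at -0.068 over all rows. Of the 84 members 39 had opposite signs on them. The median absolute value of a member there was 0.13, so the small SD goes with small ratios and does not show that the 2 arrays agree.

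Of the 84 members 24 were above 0 and 60 below at 8 months, with a median of -0.12, where 45% of all rows were above 0. On replicates 3 and 4 the count was 29 above and 55 below with a median of -0.06, where 49.6% of all rows were above 0. The mitotic genes had a median of -0.12 (8 above, 17 below) or -0.03 on replicates 3 and 4 (9 above, 16 below). The S-phase genes had a median of -0.20 (3 above, 8 below) or -0.17 on replicates 3 and 4 (2 above, 9 below). For the mitotic regulators alone the median was -0.24 with 1 of 12 above 0, or -0.17 on replicates 3 and 4 with 3 of 12 above 0. The arrays differed: from replicate 1 to replicate 4 the mitotic medians were -0.78, 0.40, -0.10 and -0.08 and the S-phase medians -1.12, 0.13, -0.09 and -0.23, so that replicate 2 lay above 0. Without replicate 1 the S-phase median was -0.046, without replicate 2 -0.42, without replicate 3 -0.47 and without replicate 4 -0.098. The mitotic median was -0.030, -0.26, -0.22 and -0.029 in the same order. The centromere genes had a median of 0.17 (4 above, 2 below), or 0.02 on replicates 3 and 4 (3 above, 3 below). Cenpt, a kinetochore scaffold protein, was the highest of them at 0.39 ± 0.57. Cdc25c, the phosphatase that activates Cdk1, was the regulator above 0 over the 4 arrays, at 0.21 ± 1.03.

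Of the members 3 met the size rule at 8 months on the values as deposited, each of them lower in the female pool, where 1.31% of all rows met it as lower and 1.68% as higher. Aurka stood at -2.005, -0.84, -0.62 and -0.83 (-1.07 ± 0.63), below 0 on every array, and at -0.72 on replicates 3 and 4. At 2 months its arrays had run from -0.70 to 0.24. Ccne1, the cyclin E that drives cells from G1 into S phase, stood at -1.9996, -0.20, -0.44 and -0.21 (-0.71 ± 0.87). Without the lowest array, replicate 1, it did not meet the size rule, and on replicates 3 and 4 it was at -0.32. Kif15, a spindle motor, stood at -1.81, -0.78, -0.03 and -0.02 (-0.66 ± 0.85). Its value rested on the 2 arrays that carry the trend, and on the other 2 it was at -0.02. With the trend removed none of these 3 met the rule: Aurka stood at -0.93 and Ccne1 at -0.60, without 1 sign on all arrays, and Kif15 at -0.52. In that setting 3 other members did, Kif20a and Top2a as lower and Kifap3 as higher, where 2.97% of all rows met the rule. On replicates 3 and 4 it was met by Aurka as lower and Kifap3 as higher, where 3.33% of all rows met it. Without replicate 2 the count of members was 6 (4.76% of all rows), and without replicate 3 or 4 it was 5 (6.86% and 6.1% of all rows).

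On every 8-month array 3 members were above 0 and 5 were below 0, a share near that of all rows with 1 sign (10.6%). The 3 above 0 were E2f5, Ccndbp1 and Cenpx. E2f5, an E2F factor of the repressing kind, stood at 0.40, 0.76, 0.37 and 0.53 (0.51 ± 0.18), against 0.04 ± 0.16 at 2 months. Ccndbp1, which binds D-type cyclins, was at 0.39 ± 0.07 against 0.11 ± 0.12. For both genes the arrays of the ages did not overlap, though the difference was below 1.5-fold (0.47 and 0.28). Cenpx, a centromere and DNA repair protein, was at 0.33 ± 0.41 or 0.09 on replicates 3 and 4.

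**Figure D2:**
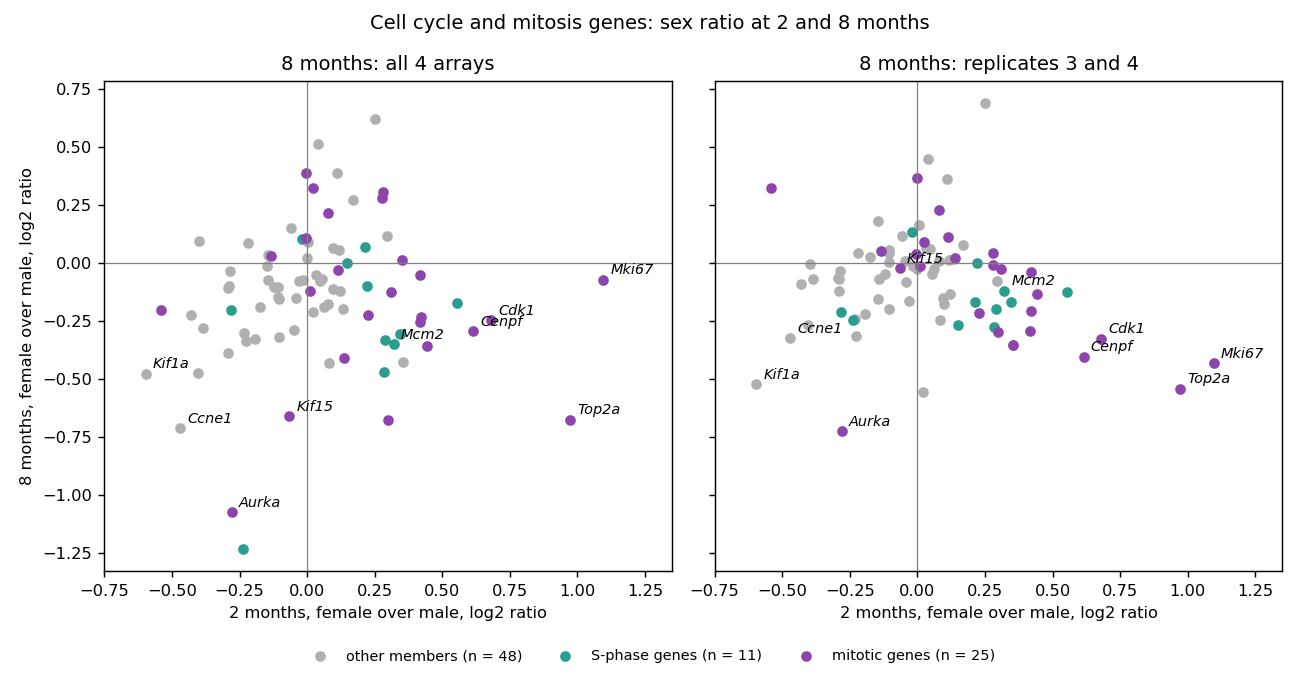
Female over male log2 ratio at 2 months (horizontal axis) against that at 8 months (vertical axis) for the 84 members, with the 8-month value from all 4 arrays (left) or from replicates 3 and 4 (right). Each point is a gene, coloured by group, and named genes met a size rule; Mki67, Top2a, Cdk1 and Cenpf lie right of and below 0 in both panels, and Aurka and Kif1a lie left of and below 0.

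The change of the sex ratio from 2 to 8 months ran downward in most S-phase and mitotic genes. The difference was below 0 for 9 of the 11 S-phase genes with a median of -0.62, and for 17 of the 25 mitotic genes with a median of -0.45, where 52.9% of all rows had a difference below 0. On replicates 3 and 4 the medians were -0.42 and -0.34, with the same counts below 0, where 3636 of 7687 rows were below 0. The other 48 members were below 0 in 28 cases on all arrays and in 21 on replicates 3 and 4, with medians of -0.05 and 0.05. From 2 to 8 months 14 mitotic genes passed from above to below 0 and 3 the other way, and 8 kept their sign. Of the S-phase genes 6 passed downward, 1 upward and 4 kept their sign. These are signs of age means, and no S-phase or mitotic gene that passed downward was below 0 on every 8-month array. Of the mitotic genes 2 were, Aurka and Kif15, which lay below 0 at both ages, and of the S-phase genes 0. Over all 7812 rows 379 were below 0 on every 8-month array. As to the age means again, the other members changed sign less often. Of the 48 others 32 kept their sign. Over all rows 4484 of 7812 did.

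For the difference the size rule asked for a 1.5-fold change of the ratio and for array values that do not overlap between ages. By this rule 3 members had a lower ratio at 8 months and none a higher one. They were Mki67, Top2a and Mcm2, and over all rows 1.72% met the rule as lower and 1.57% as higher. Mcm2, a helicase subunit, stood at -1.23, 0.07, -0.02 and -0.21 at 8 months, below the 2-month arrays given above, with a difference of -0.67. Without 8-month replicate 1 this difference was -0.37 and Mcm2 did not meet the rule. Without the fold threshold 5 members did not overlap between the ages, these 3 and the 2 genes E2f5 and Ccndbp1, where 5.93% of all rows did not overlap.

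With replicates 3 and 4 alone at 8 months, 10 members met the rule as lower and none as higher, where 2.63% of all rows met it as lower and 3.29% as higher. With 2 arrays in place of 4, a lack of overlap is easier to reach for every row. Of the 10, 9 were S-phase or mitotic genes: Mki67 at -1.53, Top2a at -1.51, Cenpf at -1.02, Cdk1 at -1.01, Plk1 at -0.71, Kif22 at -0.70, Mcm7 at -0.68, Aurkb at -0.63 and Kif20a at -0.60. The tenth was Cdk5r1, the activator of the neuronal kinase Cdk5, at -0.71. Mcm2, at -0.44 on this measure, no longer reached 1.5-fold. After removal of the trend from all arrays 13 members were lower and none higher, 12 of them S-phase or mitotic genes, where 2.46% of all rows were lower. Without 8-month replicate 2 the count was also 13 (2.94% of all rows). It was 6 without 2-month replicate 3, without 2-month replicate 4 or without 8-month replicate 3, where 2.31%, 2.1% and 2.54% of all rows were lower. Mki67 and Top2a were among the members counted in each of these settings.

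Sequences of promoters show what many of the mitotic genes share that the symbol rule did not use. Cell cycle promoters often hold an E2F motif, which E2F factors bind, or the pair of a CHR motif, bound by the MuvB complex, and an NF-Y motif, bound by the factor NF-Y. The 5 promoters below, from RefSeq on GRCm38.p6, belong to S-phase or mitotic genes that met a size rule at 1 age or the other: Mki67, Top2a and Cdk1 at 2 months, and Aurka and Kif15 at 8 months. Each runs 5′ to 3′ along the gene's own strand from 250 bases before to 50 bases after its start, and capitals mark the motifs on either strand. Mki67 lies at chr7:135716330-135716629 on the minus strand, Top2a at chr11:99024140-99024439 on the minus strand and Cdk1 at chr10:69352863-69353162 on the minus strand. Aurka lies at chr2:172370521-172370820 on the minus strand and Kif15 at chr9:122950831-122951130 on the plus strand.
Mki67: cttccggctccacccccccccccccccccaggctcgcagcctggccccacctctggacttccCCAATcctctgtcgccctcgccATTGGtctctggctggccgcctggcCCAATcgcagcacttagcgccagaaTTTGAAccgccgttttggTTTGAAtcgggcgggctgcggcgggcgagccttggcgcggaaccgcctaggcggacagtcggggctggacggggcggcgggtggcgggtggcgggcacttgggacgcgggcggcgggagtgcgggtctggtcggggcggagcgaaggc
Top2a: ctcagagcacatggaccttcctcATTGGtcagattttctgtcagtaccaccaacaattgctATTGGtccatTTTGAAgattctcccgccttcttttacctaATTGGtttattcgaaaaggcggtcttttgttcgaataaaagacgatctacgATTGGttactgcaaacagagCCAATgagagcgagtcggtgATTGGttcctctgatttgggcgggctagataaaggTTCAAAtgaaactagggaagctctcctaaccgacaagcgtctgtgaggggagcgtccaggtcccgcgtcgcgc
Cdk1: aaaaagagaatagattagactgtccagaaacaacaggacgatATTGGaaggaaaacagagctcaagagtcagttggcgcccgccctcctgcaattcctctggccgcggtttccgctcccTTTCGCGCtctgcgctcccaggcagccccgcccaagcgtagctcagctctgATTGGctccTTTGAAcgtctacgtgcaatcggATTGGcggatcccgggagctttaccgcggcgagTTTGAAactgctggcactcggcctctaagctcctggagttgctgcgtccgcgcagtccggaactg
Aurka: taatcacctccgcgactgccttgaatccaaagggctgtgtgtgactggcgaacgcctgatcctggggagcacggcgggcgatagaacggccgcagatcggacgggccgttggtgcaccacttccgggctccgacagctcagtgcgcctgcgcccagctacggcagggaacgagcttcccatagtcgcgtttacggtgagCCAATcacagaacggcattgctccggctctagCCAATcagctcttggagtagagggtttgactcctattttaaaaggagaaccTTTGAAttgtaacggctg
Kif15: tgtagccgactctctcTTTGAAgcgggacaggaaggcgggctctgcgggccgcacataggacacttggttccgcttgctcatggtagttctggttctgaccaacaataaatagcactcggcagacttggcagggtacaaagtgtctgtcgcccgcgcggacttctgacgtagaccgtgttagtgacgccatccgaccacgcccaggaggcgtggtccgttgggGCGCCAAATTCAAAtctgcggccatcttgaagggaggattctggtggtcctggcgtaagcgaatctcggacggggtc

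The letters searched for the E2F motif were TTTCCCGC or TTTCGCGC and likewise TTTGCCGC or TTTGGCGC. Those of the CHR motif were TTTGAA, and for the NF-Y motif CCAAT was used, each on both strands. No 2 motifs overlapped in the sequences shown. Mki67 held 2 CHR and 3 NF-Y motifs, Top2a 2 and 6, Cdk1 2 and 3 with 1 E2F motif, and Aurka 1 and 2. Kif15 held 2 CHR motifs and 1 E2F motif but no NF-Y motif within these letters. Promoters were matched for 21 of the 25 mitotic genes, 10 of the 11 S-phase genes and 38 of the 48 others. Among mitotic genes 17 of 21 (81.0%) held a CHR motif, against 18.1% of all 27025 promoters of this length, and 16 (76.2%) held it together with NF-Y, against 7.12%. Among S-phase genes 5 of 10 held an E2F motif, namely Mcm3, Mcm5, Mcm6, Mcm7 and Mcm8, against 2.32% of all promoters. Among the other members 4 of 38 (10.5%) held a CHR motif and 2 (5.26%) an E2F motif. A match of letters is a description of the sequence and not a measured binding site. Of the 15 matched mitotic genes above 0 at 2 months 12 (80%) held a CHR motif. Aurka and Mki67, on opposite sides at 2 months, both had the pair.

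**Figure D3:**
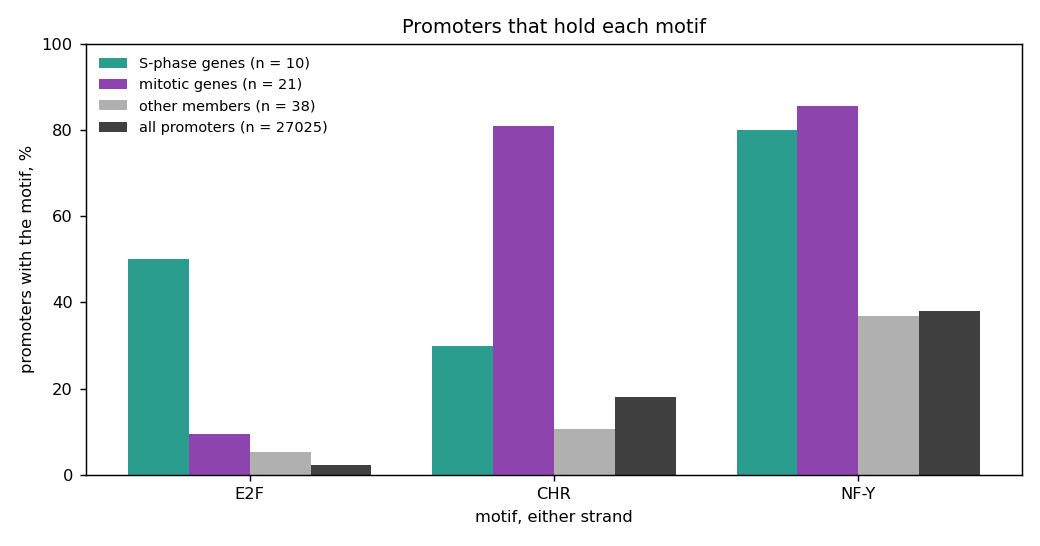
Share of promoters, in percent, that hold the E2F, CHR or NF-Y motif on either strand, for S-phase genes, mitotic genes, the other members and all promoters in the RefSeq table. The bar for mitotic genes stands at 81.0% for CHR against 18.1% for all promoters, and the bar for S-phase genes at 50% for E2F against 2.32%.

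The G1 machinery did not share the 2-month pattern. All 6 measured G1 cyclins and kinases were below 0 at both ages, with medians of -0.26 at 2 months and -0.19 at 8 months, and on replicates 3 and 4 at 8 months 5 of 6 were below 0 with a median of -0.10. At 2 months Ccne1 stood at -0.47 ± 0.54, Cdc25a, the phosphatase that frees G1 kinases, at -0.43 ± 0.32, and the D-type cyclins Ccnd2 and Ccnd1 at -0.29 ± 0.40 and -0.23 ± 0.17. Their kinases Cdk4 and Cdk6 were at -0.11 ± 0.25 and -0.04 ± 0.35, and the 2 rows of Cdk6 disagreed at 0.236 and -0.319. None reached 1.5-fold at 2 months.

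The smaller families stood near 0 or varied among their members. Of the E2F factors, E2f6 and E2f3 were at -0.29 ± 0.21 and -0.10 ± 0.44 at 2 months. The CDK inhibitors Cdkn1c, Cdkn2b and Cdkn2d, which hold the G1 kinases in check, were at -0.15 ± 0.17, -0.11 ± 0.38 and 0.08 ± 0.63 at 2 months. At 8 months they were at -0.01 ± 0.53, -0.15 ± 0.29 and -0.18 ± 0.55, or at 0.18, 0.00 and 0.01 on replicates 3 and 4. Plk4, the Polo-like kinase of centriole duplication, was at 0.02 ± 0.33 at 2 months. It was at -0.21 ± 0.67 at 8 months, or -0.56 on replicates 3 and 4.

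The remaining relatives, placed outside the S-phase and mitotic genes, stayed near 0 as groups at 2 months. The 12 Kif-named genes not listed as mitotic, labelled transport kinesins here whether or not each carries cargo, had medians of -0.04 and -0.09 at the 2 ages. The 9 other genes named Cdc had medians of -0.05 and -0.03 (0.01 on 8-month replicates 3 and 4). Medians of the 10 other cyclin-dependent kinases and partners were -0.09 and -0.23. Kif1a, which carries synaptic vesicle precursors, was the exception. It stood at -0.68, -0.46, -0.46 and -0.79 at 2 months (-0.60 ± 0.17) and at -0.65, -0.21, -0.42 and -0.63 at 8 months (-0.48 ± 0.21), so it was below 0 on all 8 arrays. It also fell short of the size rule at 2 months without replicate 1 or with the trend removed. Among the other transport kinesins with the largest 2-month ratios were Kifc2 at -0.40 ± 0.45 and the endosome motor Kif16b at -0.29 ± 0.08. Of the Cdc-named genes Cdc42ep1, an effector of the GTPase Cdc42, was at -0.29 ± 0.55 and the splicing factor Cdc5l at -0.22 ± 0.08. Kifap3, the adaptor of the heterotrimeric transport kinesin, was at 0.25 ± 0.07 at 2 months and 0.62 ± 0.89 at 8 months, where replicate 2 was at -0.40 and replicate 3 at 1.21. Cdk5r1 was at 0.36 ± 0.12 and -0.43 ± 0.79, and Cdk17, a kinase of the PCTAIRE family, at 0.29 ± 0.14 and 0.12 ± 0.78. Its relative Cdk18 was at -0.38 ± 0.24 and -0.28 ± 0.86, and Cdk11b, a kinase of transcription and splicing, at -0.40 ± 0.58 and -0.47 ± 1.03.

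Over both ages together no member differed between the sexes in the limma test (0 of 84 with an adjusted p below 0.05, n = 2 pool pairs), where 0.0896% of all rows did. The lowest limma adjusted p was 0.30, for Ccne1 at -0.59, and Kif1a followed at -0.54 with a limma adjusted p of 0.32. Unadjusted, 10 of the 84 members had a limma p below 0.05, a share near that of all rows (811 of 7812). Of the 10, 9 were lower in the female pools and Kifap3 was higher. None of the 4 genes that led at 2 months was among these 10, and each of them had ratios of opposite sign at the 2 ages.

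Genes of the same processes that the symbol rule does not take in were read from 2 further lists. Of 27 measured replication genes 13 were above 0 at 2 months, with a median of -0.01, and 10 at 8 months, with a median of -0.06. Uhrf1, which guides DNA methylation to new DNA, was the 1 that met the size rule at 2 months, where 2.41% of all rows met it as higher. It was at 0.83 ± 0.19 at 2 months and at -0.29 ± 0.66 at 8 months. Chaf1b, a chromatin assembly subunit, was at 0.56 ± 0.15 and -0.34 ± 0.23, and its arrays did not overlap between the ages. Polymerase, primase and origin genes stayed near 0, with the primase Prim1 highest of these at 0.36 ± 0.29.

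Of 25 measured other mitotic genes 16 were above 0 at 2 months, with a median of 0.13, and 6 at 8 months, with a median of -0.23. By size, 3 were higher at 2 months: Nusap1, a spindle microtubule binder, at 1.26 ± 0.44, Cdca3, which helps cells enter mitosis, at 1.00 ± 0.38, and Cks2, a Cdk1 subunit, at 0.76 ± 0.30. Over all rows 2.41% met the rule as higher at 2 months. At 8 months Cdca3 stood at -0.48 ± 0.21 and Cks2 at -0.44 ± 0.36, or at -0.38 and -0.16 on replicates 3 and 4. Both had a lower ratio at 8 months by the size rule, as did Tacc3, Incenp and Mad2l1, with differences of -0.72, -0.80 and -0.66. None had a higher one, where 1.72% of all rows met the rule as lower and 1.57% as higher. The 8-month values of Tacc3, Incenp and Mad2l1 were -0.24, -0.49 and -0.24, or -0.17, -0.18 and -0.16 on replicates 3 and 4. Nusap1 and Knstrn, a kinetochore and spindle protein, did not turn: they stayed higher in the female pool at 8 months, at 0.85 ± 0.19 and 0.61 ± 0.22.

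Markers of T cells and of fat were also mostly higher in the female pool at 2 months. Of 12 measured thymocyte and T cell markers 11 were above 0 at 2 months, with values from -0.24 for Thy1 to 3.74 for Cd8a and 4.48 for Rag1, and 10 met the size rule. Their median was 2.13, and on the 4 arrays it was 2.47, 2.56, 1.47 and 1.72. On the same arrays the median of the mitotic genes was 0.24, 0.29, 0.14 and 0.16, and that of the S-phase genes 0.26, 0.39, 0.03 and 0.24. Replicates 1 and 2 had the higher values of all 3 lists, although the S-phase medians of replicates 1 and 4 were close. All arrays of an age carry the same female and male pools, so the order of the arrays cannot inform on cell content. At 8 months the marker median was 0.06 (0.16 on replicates 3 and 4) with 7 of 12 above 0, and Rag1 alone still met the size rule, at 1.15 ± 0.90. Fat markers had a median of 1.71 over 7 genes at 2 months, led by Ucp1 at 2.99 ± 0.21, and -0.35 at 8 months, or -0.06 on replicates 3 and 4. The part of these cell types in the ratios of the mitotic and S-phase genes was not tested.

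**Figure D4:**
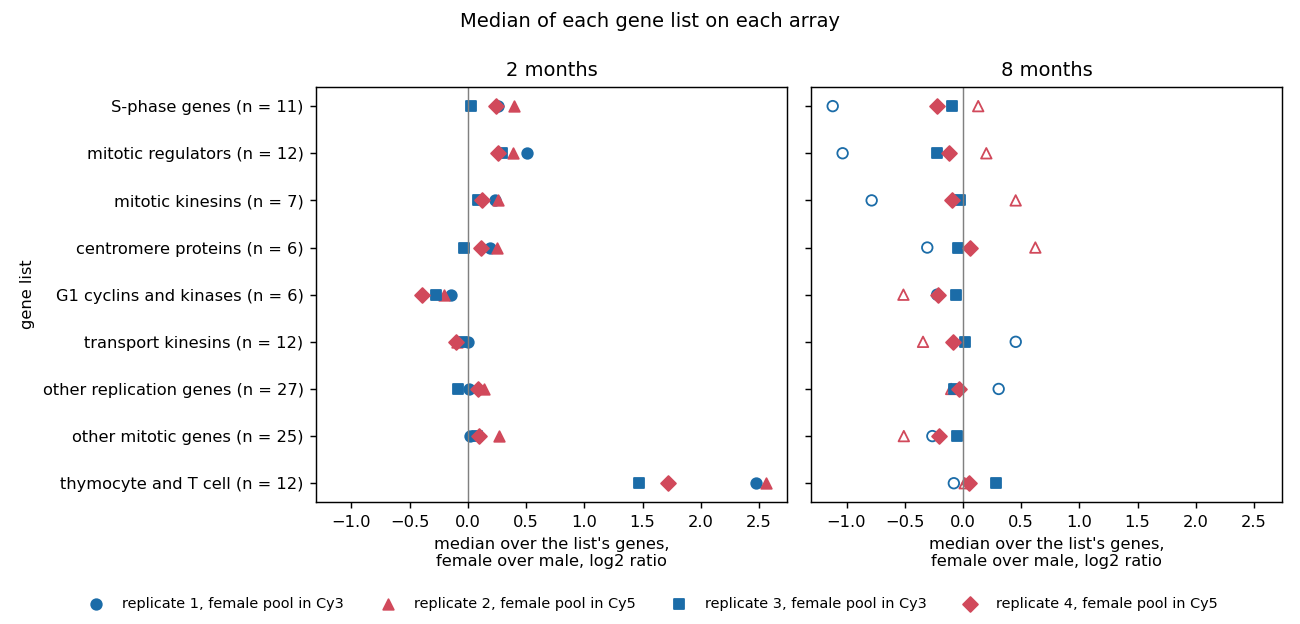
Median female over male log2 ratio of each gene list (rows, with the number of measured genes) on each of the 4 arrays at 2 months (left) and 8 months (right). Circles and squares are arrays with the female pool in Cy3, triangles and diamonds those with it in Cy5, and open symbols are 8-month replicates 1 and 2; at 2 months the T cell list lies between 1.47 and 2.56, and the mitotic regulators lie above 0 on all 4 arrays.

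The other marker lists had medians below 0 at 2 months. All 10 macrophage markers were below 0 at 2 months with a median of -0.44, and at 8 months the median was 0.27 with 8 of 10 above 0. Endothelial markers had medians of -0.42 and -0.39 (7 genes), fibroblast markers of -0.15 and 0.03 (6 genes), B and plasma cell markers of -0.27 and -0.06 (6 genes; 0.02 on 8-month replicates 3 and 4). Erythroid markers were at -0.13 and 0.41 (7 genes), and neutrophil and monocyte markers at -0.14 and 0.42 (7 genes). Single markers stood far from these medians: at 2 months Ltf, the lactoferrin of neutrophil granules and secretions, was at 2.01 ± 0.29 and the transferrin receptor Tfrc at -1.24 ± 0.62. At 8 months Jchain, the joining chain of immunoglobulins, was at 2.61 ± 1.01 and the lipocalin Lcn2 at 2.43 ± 0.83.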

How the data were processed

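Female and male heart RNA pools (6 hearts each; 2 and 8 months) were compared on 8 two-colour cDNA arrays, 4 per age. The authors deposited log10 ratios of Cy5 over Cy3; the labels name Feature Extraction version 7.1.1 for image analysis, and any later normalization is unknown here. Ratios were converted to log2, turned to female over male by the dye, and an exact 0 was treated as missing. The table has no intensities, so precision is limited by the number of arrays. Platform gene symbols were brought up to date with RefSeq gene IDs (6600 of 6671 rows with 1 symbol matched); rows of 1 gene were averaged. A further 12 rows with several symbols, one of which meets the symbol rule, were not used. A row was tested with values on at least 3 of 4 arrays per age in both dye orientations (7812 rows), and an age value is the mean of its orientations. limma version 3.58.1 in R version 4.3.3 (two-sided, Benjamini-Hochberg over all tested rows) was fitted to the 2 age means; 1 age has no test, so the size rules of the report apply. Scripts were tested on simulated data. Alternatives left out arrays, removed a running median over 201 features, or changed the scaling, centring, zeros, filter, rows per gene, symbols and fold threshold.

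The members and lists were chosen with earlier results of these data known. Named genes were taken from this rule: every member that meets a size rule; per role the 4 largest absolute values at 2 months and the 2 largest at 8 months; any S-phase or mitotic gene; from the other pathway lists the 4 largest at 2 months and any that meets a size rule; and from marker lists the 2 largest at each age. Of the markers, and of members within 1.5-fold, some that the rule gives are left unnamed. Ccndbp1 and Thy1 are named outside the rule, chosen after their values were seen.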

Additional observations from a re-analysis of the deposited data

Results flagged for a closer look

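Among 136 sets of 4 arrays checked, 7 had 1 array far from the other 3, by a gap beyond the critical value of Dixon's test; chance alone sets apart about 1 in 20 such groups. On 8-month replicate 1 these were Aurka at -2.005, Ccne1 at -1.9996 and Kif4 at -1.95, below their other arrays, and Tyms at 0.683, above them. On 8-month replicate 2 they were Kif23 at 1.13 and Cenpx at 0.938, above their other arrays. At 2 months it was Cdk5r1 at 0.530 on replicate 3, above its other arrays. The 6 at 8 months lie on the 2 arrays with the trend along the feature number.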

How the results depend on the processing

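The S-phase and mitotic medians and the values of the members that met a size rule kept their sign under the alternatives run. On replicates 3 and 4 the 8-month medians of the other Cdc-named genes and of the B cell markers turned to 0.01 and 0.02. That of the CDK inhibitors turned from -0.15 to 0.01. The median difference between ages turned from -0.06 to 0.15 for the G1 cyclins and kinases and from -0.10 to 0.23 for the E2F factors. For the CDK inhibitors it went from -0.04 to 0.11 and for the centromere genes from 0.10 to -0.11. For the transport kinesins it went from -0.005 to 0.05 and for the endothelial markers from -0.11 to 0.01. For the members outside the S-phase and mitotic groups it went from -0.05 to 0.05, and over all rows from -0.02 to 0.01. limma called 0 members over both ages in every setting. At 2 months the count of 5 members (4.17% of all rows) became 8 with the arrays scaled to 1 spread (7.49%). It was 23 at 1.2-fold (16.9%), 1 at 2-fold (1.11%), and 3 to 7 leaving out 1 array each (4.07% to 4.75% of all rows). At 8 months the count of 3 (2.98%) became 1 with scaled arrays (1.96%), 8 at 1.2-fold (8.55%) and 1 at 2-fold (0.858%). Leaving out 1 array each gave 2 to 6, where 2.94% to 6.86% of all rows met the rule. Replicates 3 and 4 alone gave 2, Aurka and Kifap3 (3.33% of all rows). Removing the trend gave 3, none of them the original 3 (2.97% of all rows). For 8 against 2 months the count of 3 (3.29%) became 10 with replicates 3 and 4 (6.03%) and 13 with the trend removed (4.62%). It was 9 with scaled arrays (4.79%), 5 at 1.2-fold (5.66%), and 3 to 13 leaving out 1 array each (3.59% to 6.23% of all rows). The median of mitotic genes at 2 months, 0.28, was 0.366 with scaled arrays and 0.198 to 0.29 leaving out 1 array each. At 8 months that range was -0.26 to -0.029 for the mitotic and -0.47 to -0.046 for the S-phase median. In these settings every member counted for the age difference was lower at 8 months, except E2f5 and Ccndbp1 at 1.2-fold. The cause of these shifts was not tested, except that fewer arrays make 1 sign or no overlap easier to reach.

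Same-numbered arrays of the 2 ages have the same dye orientation, and their deviations from the age means correlated at -0.125, -0.0972, 0.564 and 0.515 for numbers 1 to 4. Differently numbered arrays of 1 orientation correlated at 0.593 (2-month 1 with 8-month 3) and 0.530 (2-month 2 with 8-month 4). The values were 0.0059 for 2-month 3 with 8-month 1 and -0.040 for 2-month 4 with 8-month 2. High values thus occurred without a shared number, and the numbers were not taken to pair the arrays. With the replicate block the difference was counted for 7 members (5.71% of all rows), and the array-level fit with the block called 0 members and 21 of all rows. Ratios of 4 technical arrays from 1 pool per sex limit every value to these pools.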
